A study of Mus musculus with 12 samples.

Results

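The proteasome genes described here are the 37 genes of the deposited table whose names begin with Psma, Psmb, Psmc or Psmd and a digit, out of 23406 genes in all, without the immunoproteasome genes Psmb8, Psmb9 and Psmb10. By their known roles 16 encode the core particle, 17 the regulatory particle and 4 neither. Their RNA was measured in 12 bulk libraries of mouse mammospheres, the floating spheres that mammary cells form in suspension culture, at passage 2 from C57BL/6J mice. The 4 groups of 3 libraries came from mice without p66Shc (p66-/-, labelled Shc1p66KO, here KO) of 12 months, KO mice of 2 months, wild-type (WT) mice of 12 months and WT mice of 2 months. p66Shc is the longest protein made from Shc1, an adaptor linked to the handling of oxidative stress. The study's text gives 3 mice for each age and genotype, but no label ties a library to an animal or a culture, so p-values measure the spread between these libraries.

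The proteasome breaks down proteins tagged with ubiquitin. Its core particle is a barrel of stacked rings: the outer rings of alpha subunits (Psma) gate the entry, and the inner rings of beta subunits (Psmb) carry the cutting sites, of which Psmb5 is chymotrypsin-like, Psmb6 caspase-like and Psmb7 trypsin-like. The regulatory particle caps the barrel: a base of ATPases (Psmc) unfolds the substrate, and the non-ATPase subunits (Psmd) of base and lid bind it and remove its ubiquitin. Cells that lose proteasome activity raise the genes of the complex together through the transcription factor NRF1 (Nfe2l1), which binds antioxidant response elements in their promoters.

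RefSeq promoter windows (GRCm38.p6) matched 30 of the 37 genes, with 32 windows, and the 250 bases before each start site were searched on both strands for 4 short motifs. The antioxidant response element TGACNNNGC lay in 5 of the 32 windows, against 10.2% of all 32851 windows. The ETS factor site CCGGAAG was found for 8 of 14 regulatory particle genes, 1 of 12 core genes and 1 of the 4 other genes, against 7.83% of all 27025 genes. The box CCAAT lay in 13 of the 32 windows and in 33.9% of all windows, and the GC box GGGCGG in 17 of the 32 and in 32.7% of all windows. Motifs were counted where they overlap, as the element and a GC box do for Psmd9. A match is a run of letters and not a shown binding site. The sequences below are the 100 bases before the start site, 5′ to 3′ on the gene's strand, with the antioxidant response element (Psmb5, Psmb6) or the ETS site (the others) in capitals, CTTCCGG being the ETS site on the opposite strand. Psmb5 and Psmb6 are shown because these 2 of the 3 catalytic subunits fell most with age in KO, and the 4 regulatory genes as examples of an ETS site within 50 bases of the start. The windows are chr14:54617996-54618095 (minus strand) for Psmb5, chr11:70525257-70525356 (plus strand) for Psmb6, chr16:20651552-20651651 (plus strand) for Psmd2, chr14:14120946-14121045 (minus strand) for Psmd6, chr11:80428515-80428614 (plus strand) for Psmd11 and chr11:107479428-107479527 (plus strand) for Psmd12.
Psmb5: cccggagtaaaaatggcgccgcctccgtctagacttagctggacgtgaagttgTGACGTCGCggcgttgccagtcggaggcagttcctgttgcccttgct
Psmb6: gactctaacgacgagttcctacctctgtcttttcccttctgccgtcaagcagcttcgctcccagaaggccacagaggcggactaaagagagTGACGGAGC
Psmd2: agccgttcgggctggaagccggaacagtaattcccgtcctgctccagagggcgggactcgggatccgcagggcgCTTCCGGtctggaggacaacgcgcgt
Psmd6: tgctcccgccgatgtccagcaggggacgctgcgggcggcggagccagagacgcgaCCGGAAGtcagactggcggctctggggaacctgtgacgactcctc
Psmd11: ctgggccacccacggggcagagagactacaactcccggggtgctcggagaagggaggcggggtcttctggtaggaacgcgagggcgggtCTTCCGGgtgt
Psmd12: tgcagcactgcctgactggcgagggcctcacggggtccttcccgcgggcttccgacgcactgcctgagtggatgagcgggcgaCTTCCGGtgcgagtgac

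Libraries held 31845169 to 109079737 reads in genes, the highest in replicate 3 of 12-month KO, and replicates of a group correlated at 0.991 to 0.998. Values are CPM, reads scaled to library size by the authors, and a gene was tested where its mean over the 12 libraries was at least 0.5 CPM. Shc1, of which the knockout removes an isoform, had 170.0, 162 and 178 CPM in 12-month KO and 219.6, 209 and 203 in 12-month WT. At 2 months Shc1 had 208, 209 and 208 CPM in KO and 266, 311 and 309.7 in WT, so total Shc1 was lower in KO at both ages (adjusted p = 0.000593 and 0.000133). The summed level of 5 luminal epithelial markers was 372 to 391 CPM in 12-month KO, 372 to 439 in 2-month KO, 3016 to 3138 in 12-month WT and 250.1 to 318 in 2-month WT. The summed level of 5 fibroblast markers was 7569 to 8596 CPM in 12-month KO, 8419 to 9309 in 2-month KO, 5527 to 5866 in 12-month WT and 8860 to 9256 in 2-month WT. That of 5 basal epithelial markers was 65.6 to 67.1 CPM in 12-month KO, 60.7 to 62.5 in 2-month KO, 201 to 212 in 12-month WT and 43.2 to 53.1 in 2-month WT. None of these markers was at 0 in all libraries. The fibroblast markers moved in both directions with age in KO. Mean Col3a1 was 2481 CPM in 12-month KO and 5045 in 2-month KO, and mean Dcn was 4137 in 12-month KO and 2525 in 2-month KO. Col1a1 and Lum were also lower at 12 months, and Pdgfra was higher. In bulk RNA fewer cells of a type and less RNA per cell cannot be told apart. Replicate 1 of 2-month WT stood apart from its replicates in a way that followed transcript GC content, with a Spearman correlation of -0.71 between its deviation and GC over 13159 genes, and replicates 1 and 3 of 12-month KO did so with -0.51 and 0.54. Without replicate 3 of 12-month KO 26 proteasome genes fell and 3 rose with age in KO and 13 were lower and 8 higher in KO at 12 months. Without replicate 1 of both 2-month WT and 12-month KO, 25 proteasome genes fell and 4 rose with age in KO. With age in WT 18 then fell and 1 rose, and in KO at 12 months 12 were lower and 6 higher. The counts with all libraries are given further on. Shares of all genes without these libraries are not given here, so the counts show only how the calls of proteasome genes depend on them.

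All but 1 of the 37 genes were tested. Psmb11, the catalytic subunit of the thymic cortex, had 0 to 5 reads per library and at most 0.062 CPM, where 3 reads correspond to 0.029 to 0.0859 CPM. Psma8, the alpha subunit of germ cells, just passed with 13 to 74 reads per library and 0.334 to 0.816 CPM. The other 35 genes reached a mean of at least 6.14 CPM.

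Levels per kilobase of transcript differed widely between subunits. Psmb4, a beta subunit without a cutting site, was highest with a mean of 202 CPM per kb over the 12 libraries, followed by the lid subunit Psmd8 with 197, the alpha subunit Psma7 with 163 and Psmb6 with 158. Psmb7 stood at 121 and Psmb5 at 49.8 CPM per kb. The lowest of the broadly expressed subunits were Psma3 with 2.16, the lid subunit Psmd11 with 9.24, Psma5 with 13.8 and Psmb3 with 24.3 CPM per kb. All 4 have a copy elsewhere in the genome, mostly processed pseudogenes, that matches at least 200 bases at 95% identity or more, as have Psma4, Psmb5, Psmc1 and Psmd2. How reads shared with copies were counted is not given in the sources used here, so the levels of these 8 genes are uncertain. Psmb7, Psmc3ip, Psmd1 and Psmd13 overlap a neighbouring gene (Nek6, Mlx, Gm21972 and Sirt3), and their reads may be divided.

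**Figure D1:**
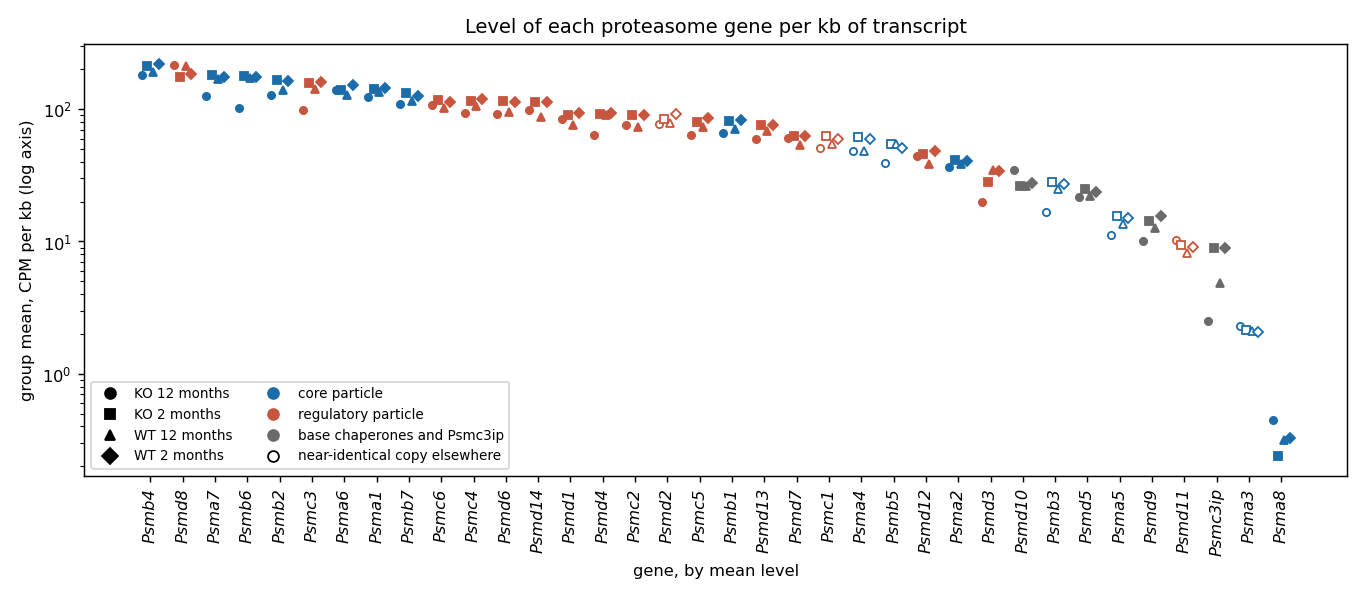
Level of each tested proteasome gene in CPM per kb of its longest transcript on a log axis, as the mean of 3 libraries in each of the 4 groups, with colours for core particle, regulatory particle and the rest and open symbols for genes with a near-identical copy. Psmb4 (202 CPM per kb over all libraries) and Psmd8 (197) lead; Psma3, Psmd11, Psma5 and Psmb3, the lowest subunits apart from Psma8, have open symbols.

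The summed level of the 37 genes was lower at 12 than at 2 months in both genotypes. It was 4054 ± 55.9 CPM in 12-month KO and 4740 ± 62.7 in 2-month KO, and 4340 ± 122 CPM in 12-month WT and 4820 ± 105 in 2-month WT (SD, n = 3 each), with no overlap of libraries within either genotype. These sums use the authors' scaling, which was not the same run for all columns. As a share of all reads, scaled only by the library total, the genes took 0.384% to 0.389% in 12-month KO and 0.491% to 0.504% in 2-month KO, without overlap. The share was 0.456% to 0.486% in 12-month WT and 0.458% to 0.479% in 2-month WT, and these ranges overlapped. The fall of the sum with age in WT was therefore seen with the authors' scaling and not in read shares. With scaling factors computed over all 12 libraries the sum was still lower at 12 than at 2 months in WT, without overlap of libraries. With these factors the median change with age in WT was -0.10 log2 over the 36 tested genes. It was -0.02 over all genes.

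By mean log2 levels, in which each gene counts equally, the balance of core and regulatory particle RNA overlapped between all 4 groups. The mean log2 level of the 15 tested core genes minus that of the 17 regulatory genes was -1.297 ± 0.11 in 12-month KO, -1.22 ± 0.02 in 2-month KO, -1.20 ± 0.02 in 12-month WT and -1.27 ± 0.07 in 2-month WT (SD, n = 3 each). The change with age was -0.07 in KO and 0.07 in WT, against a pooled SD within groups of 0.07. The difference between KO and WT was -0.09 at 12 and 0.05 at 2 months. The 15 core genes include Psma8, which weighs as much as any other at only 0.334 to 0.816 CPM. Psma8 rose with age in KO (0.48 log2), against the direction of most core genes. The difference without Psma8 was not computed. Replicate 2 of 12-month KO was the lowest library at -1.41, and the 3 libraries of that group ranged from there to -1.20, a value inside the range of 12-month WT. Without the genes that have a near-identical copy the KO age change was 0.01, and against the ATPases alone it was 0.04. As the log2 ratio of summed CPM, in which abundant genes weigh most, the age change was -0.14 in KO and 0.01 in WT. By that ratio KO minus WT was -0.10 at 12 and 0.04 at 2 months, and the libraries of 12-month KO lay below every other library. The highest of these by the ratio, replicate 3, had summed CPM of 1389 in the core and 2548 in the regulatory particle. The lowest library outside 12-month KO, replicate 2 of 2-month WT, had 1634 and 2959. No test was made of either measure.

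**Figure D2:**
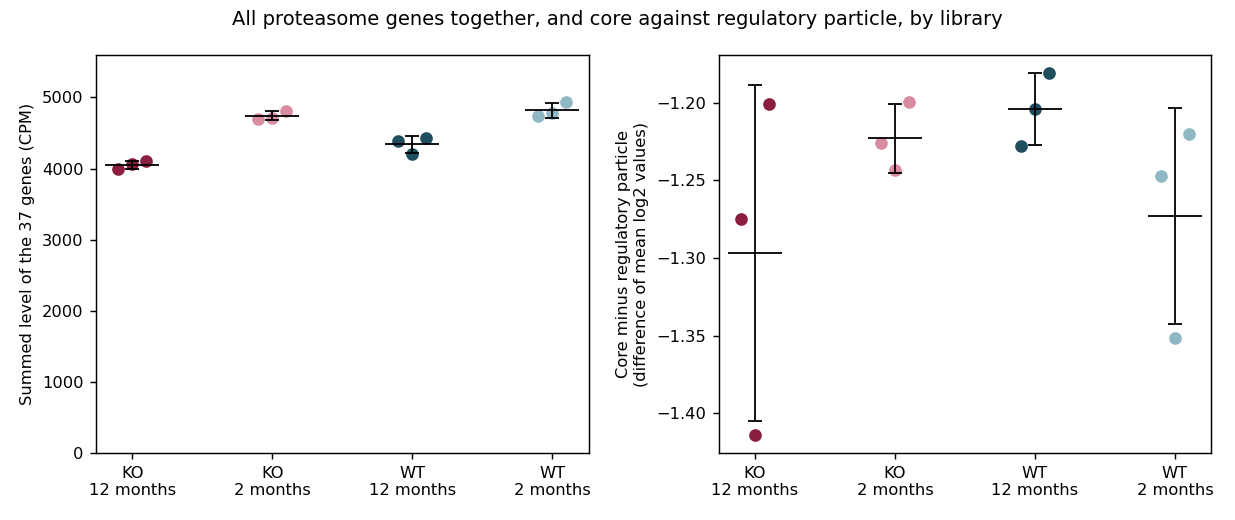
Left, summed CPM of the 37 proteasome genes per library; right, mean log2(CPM + 0.5) of 15 core genes minus that of 17 regulatory particle genes per library; points are libraries, bars mean ± SD (n = 3). The sums of 12-month KO (mean 4054) lie below all other libraries, while the core minus regulatory values by mean log2 overlap between groups.

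With age in KO most proteasome genes fell. Of the 36 genes tested with limma at an adjusted p under 0.05, 26 fell and 3 rose, while 34.2% of all 13961 genes tested fell and 32.9% rose. The median change was -0.29 log2 over the 36 genes and -0.02 over all genes. In the core particle 12 of 15 genes fell, among them all 7 beta subunits, and in the regulatory particle 11 of 17 fell, among them 5 of 6 ATPases. Libraries of 12-month KO also differed from 2-month KO in markers of other states: 5 proliferation genes summed to 373 to 510 CPM at 12 months and 1099 to 1211 at 2 months, and 5 leukocyte markers to 221 to 409 CPM at 12 months and 759 to 849 at 2 months. Skeletal muscle markers summed to 821 to 1541 CPM at 12 months and 257 to 309 at 2 months in KO, a sum carried mostly by Ttn. The 5 endothelial markers summed to 243 to 259 CPM at 12 months and 62.6 to 68.8 at 2 months. The part of these states in the proteasome result was not tested.

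Psmb6 (chromosome 11, 70525357 to 70527858, plus strand, mm10), the caspase-like subunit, had the largest fall in the core. It had 69.7, 81.8 and 94.1 CPM in 12-month KO and 138, 137 and 155 in 2-month KO. All 12-month libraries lay below all 2-month ones, a fall of 43% (log2 fold change -0.81 ± 0.13 (SE), adjusted p = 9.2e-05). Psmb5 (chromosome 14, 54614120 to 54617995, minus strand), the chymotrypsin-like subunit, had 31.1, 32.1 and 41.6 CPM in 12-month KO and 46.6, 49.3 and 51.3 in 2-month KO. It fell by 29% (log2 fold change -0.49 ± 0.11 (SE), adjusted p = 0.00146), again without overlap, replicate 3 being the highest at 12 months. Psmb7 (chromosome 2, 38588046 to 38643906, minus strand), the trypsin-like subunit, had 132, 122 and 126 CPM in 12-month KO and 151, 155 and 155 in 2-month KO, a smaller fall of 17.5% (log2 fold change -0.28 ± 0.06 (SE), adjusted p = 0.00119). The beta subunits without a cutting site fell by 0.22 (Psmb4) to 0.75 (Psmb3) on the log2 scale.

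The alpha ring was mixed. Psma7, which fell most, had 136, 147 and 157 CPM in 12-month KO and 208, 201 and 217 in 2-month KO (log2 fold change -0.51 ± 0.07 (SE), adjusted p = 1.98e-05). Psma1, Psma2, Psma4 and Psma5 fell by 0.17 to 0.49 on the log2 scale. Psma6 stood at 146 CPM in 12-month KO and 146 in 2-month KO and Psma3 at 6.58 in 12-month KO and 6.12 in 2-month KO, and neither passed the test. The germ cell subunit Psma8 rose, with 0.816, 0.756 and 0.716 CPM in 12-month KO and 0.406, 0.475 and 0.334 in 2-month KO (log2 fold change 0.48 ± 0.11 (SE), adjusted p = 0.00178), at levels far under those of the other alpha subunits.

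In the base, the ATPase Psmc3 (chromosome 2, 91054016 to 91059438, plus strand) fell most. It had 164, 186 and 189 CPM in 12-month KO and 287, 276 and 300.5 in 2-month KO (log2 fold change -0.68 ± 0.08 (SE), adjusted p = 8.25e-06). Psmc4, another ATPase, had 129, 136 and 137 CPM in 12-month KO and 164, 164 and 170.4 in 2-month KO, a fall of 19.3% (log2 fold change -0.31 ± 0.05 (SE), adjusted p = 0.000198). Neither gene's age groups overlapped in KO. Psmc1, Psmc2 and Psmc5 fell by 0.26 to 0.32, and Psmc6 changed by -0.11 log2 without passing (adjusted p = 0.0937). Psmd4, the ubiquitin receptor, had 104, 111 and 121 CPM in 12-month KO and 161, 155 and 167 in 2-month KO (log2 fold change -0.52 ± 0.08 (SE), adjusted p = 4.46e-05). The base scaffold Psmd2 fell by 0.12, and the scaffold Psmd1 did not pass at -0.09.

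In the lid, Psmd14 (chromosome 2, 61711694 to 61800376, plus strand), the deubiquitinase that strips ubiquitin from substrates, had 152, 159.7 and 141 CPM in 12-month KO and 174, 173 and 181 in 2-month KO (log2 fold change -0.22 ± 0.05 (SE), adjusted p = 0.00178). Psmd3, Psmd6 and Psmd13 fell by 0.32 to 0.48, while Psmd7, Psmd11 and Psmd12 were between -0.06 and 0.13 log2 and did not pass. Psmd8 (chromosome 7, 29174187 to 29180673, minus strand) went the other way. It had 418, 420.1 and 450.4 CPM in 12-month KO and 343, 342 and 357 in 2-month KO, all 12-month libraries above all 2-month ones (log2 fold change 0.31 ± 0.05 (SE), adjusted p = 8.8e-05).

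Among the genes outside both particles, Psmc3ip changed most of the 36. Psmc3ip is named for binding Psmc3 but is a cofactor of meiotic recombination and no subunit. It had 3.11, 3.38 and 3.23 CPM in 12-month KO and 10.8, 10.6 and 13.01 in 2-month KO, a fall of 68.7% (log2 fold change -1.67 ± 0.10 (SE), adjusted p = 1.21e-08). Of the 3 chaperones that help assemble the base, Psmd5 and Psmd9 fell by 0.18 and 0.52 log2. Psmd10, known as gankyrin, rose, with 50.6, 50.6 and 46.7 CPM in 12-month KO and 38.1, 36.9 and 37.9 in 2-month KO, without overlap (log2 fold change 0.39 ± 0.06 (SE), adjusted p = 8.53e-05). The 12-month and 2-month KO libraries did not overlap for any of the called genes whose values are given here. The share of all called genes without such overlap was not computed, so this adds nothing to the calls.

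**Figure D3:**
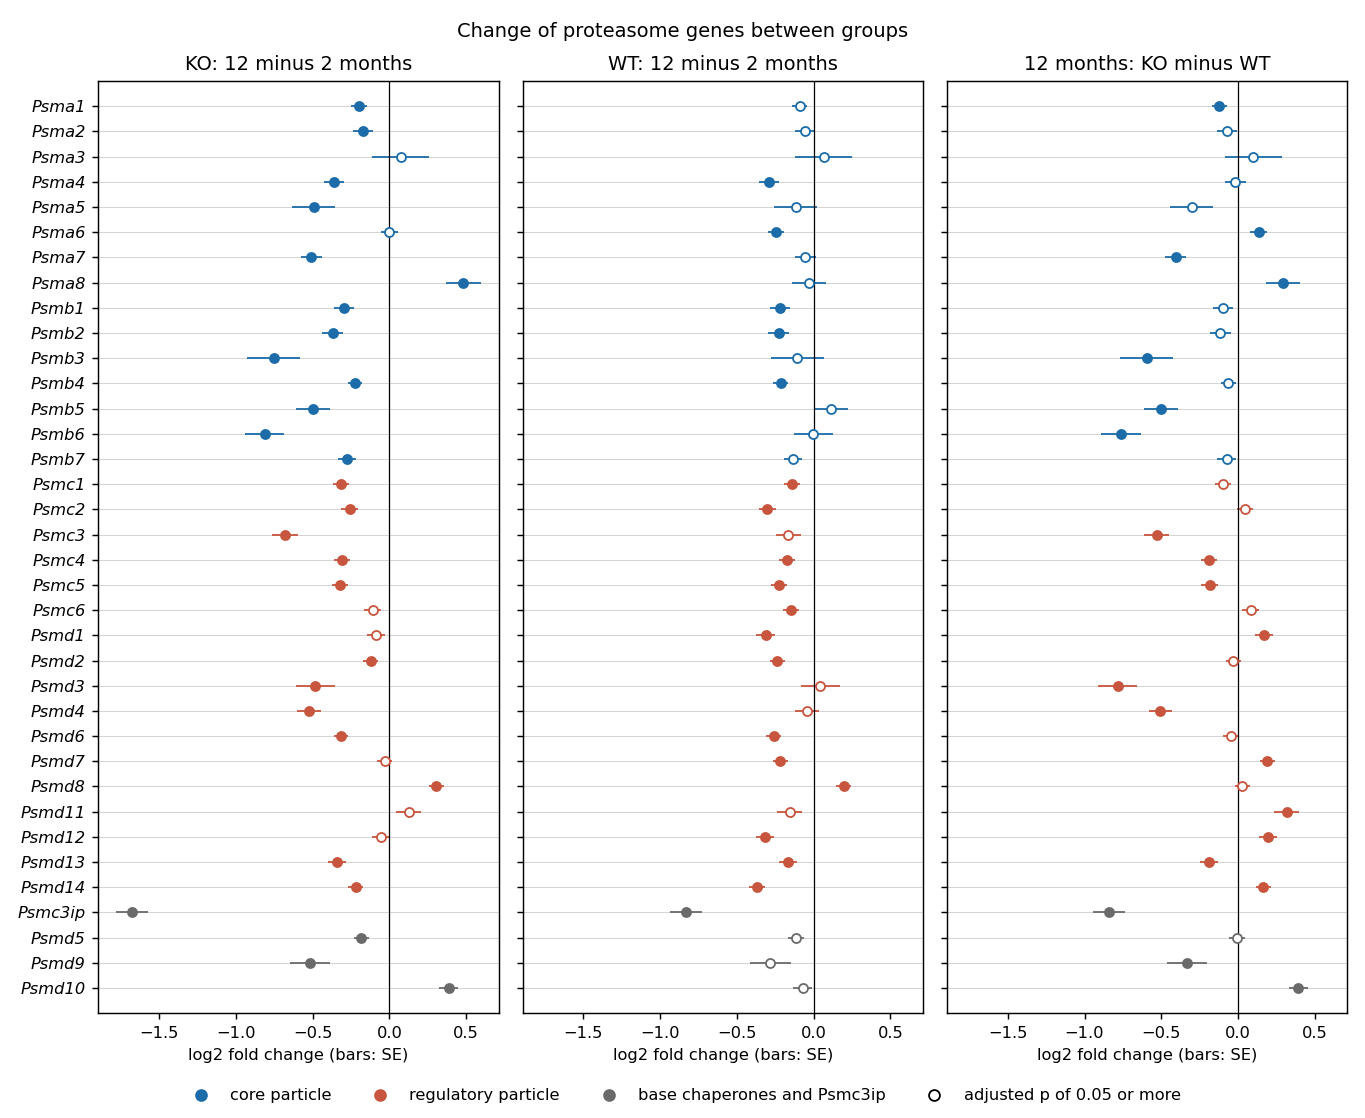
Log2 fold change and SE (limma, 4 groups of 3 libraries) of the 36 tested proteasome genes with age in KO, with age in WT, and in KO against WT at 12 months; filled symbols have an adjusted p under 0.05. In KO 26 genes lie filled to the left of 0, including all 7 beta subunits, and Psmc3ip lies farthest at -1.67.

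With age in WT 18 of the 36 proteasome genes fell and 1 rose, while 35.6% of all genes fell and 22.3% rose, with a median of -0.16 over the 36 genes and -0.08 over all. The regulatory particle had 12 of 17 genes lower, including 5 of 6 ATPases, and the core 5 of 15. With scaling factors computed over all 12 libraries 12 of the 18 were still lower, beside 29.7% of all genes. With quantile scaling 7 were lower, a share below the 33% of all genes. With edgeR 11 were lower and 1 higher, while edgeR called 7664 of all 13961 genes in either direction. The edgeR share of all genes that were lower is not given here. Luminal markers (3016 to 3138 CPM at 12 months and 250.1 to 318 at 2 months) and proliferation genes (395 to 410 CPM at 12 months and 1147 to 1279 at 2 months) moved with age in WT. So did skeletal muscle markers (180 to 203 CPM at 12 months and 902 to 1065 at 2 months) and leukocyte markers (687 to 771 CPM at 12 months and 922 to 1191 at 2 months). The part of these in the result was not tested.

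Psmd14 fell most among the regulatory genes in WT. It had 137, 134 and 132 CPM in 12-month WT and 176, 169.7 and 175 in 2-month WT, without overlap, a fall of 22.5% (log2 fold change -0.37 ± 0.05 (SE), adjusted p = 3.19e-05). The other lid genes Psmd6, Psmd7 and Psmd12 and the scaffolds Psmd1 and Psmd2 fell by 0.22 to 0.32 on the log2 scale. Psmc2 had the largest fall among ATPases (log2 fold change -0.30 ± 0.05 (SE), adjusted p = 0.000314), and Psmc4 had 150.3, 147 and 160.5 CPM in 12-month WT and 162, 177 and 178 in 2-month WT (log2 fold change -0.18 ± 0.05 (SE), adjusted p = 0.0128). The call for Psmc4 was lost with factors over all 12 libraries. Psmd8 rose in WT as well, with 433, 406 and 424 CPM in 12-month WT and 358, 376 and 368 in 2-month WT (log2 fold change 0.20 ± 0.05 (SE), adjusted p = 0.00329), and it was the 1 gene of both particles that rose in both genotypes.

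In the core, Psma4 fell most in WT, with 54.99, 53.2 and 61.9 CPM at 12 months and 73.6, 64.7 and 70.02 at 2 months (log2 fold change -0.29 ± 0.07 (SE), adjusted p = 0.00212). Psma6, Psmb1, Psmb2 and Psmb4 fell by 0.22 to 0.25. The catalytic subunits did not pass. Psmb6 had 138, 132 and 146 CPM in 12-month WT and 109.8, 159 and 153 in 2-month WT (log2 fold change -0.00 ± 0.13 (SE), adjusted p = 0.991). Psmb5 had 48.3, 47.1 and 52.8 CPM in 12-month WT and 39.1, 47.3 and 50.8 in 2-month WT (log2 fold change 0.12 ± 0.11 (SE), adjusted p = 0.394), and Psmb7 had 135, 128 and 137 in 12-month WT and 158, 134 and 148 in 2-month WT (log2 fold change -0.13 ± 0.06 (SE), adjusted p = 0.0723). For Psmb5 and Psmb6 replicate 1 was the lowest library of 2-month WT, for Psmb6 well under its replicates.

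Outside both particles Psmc3ip fell in WT too, with 6.24, 5.63 and 6.78 CPM at 12 months and 10.96, 10.7 and 12.7 at 2 months (log2 fold change -0.83 ± 0.10 (SE), adjusted p = 1.16e-05). The assembly chaperones Psmd5, Psmd9 and Psmd10 changed by -0.12, -0.28 and -0.07 log2 and did not pass. Of the 18 genes that fell with age in WT, 13 were among the 26 that fell in KO. The other 5 were Psma6, Psmc6, Psmd1, Psmd7 and Psmd12.

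The age change itself differed between genotypes for 15 of the 36 genes and for 57.7% of all genes. The age change in KO minus that in WT was negative for 8 genes and positive for 7, while 26.2% of all genes were negative and 31.4% positive. With factors over all 12 libraries the counts were 11 negative and 2 positive (30.4% and 28% of all genes), so the positive side depended on the scaling; the 2 that stayed positive were Psma8 and Psmd10. With quantile scaling 22 were negative and 3 positive (28.7% and 27.5% of all genes). Without replicate 2 of 12-month WT, replicate 3 of 2-month KO or replicate 2 of 12-month KO, the positive count was 4. Among the negative genes Psmb6 had -0.81 log2 (adjusted p = 0.0019), Psmb5 -0.61 (0.00466), Psmb3 -0.65 (0.0366), Psmc3 -0.52 (0.00202), Psmd4 -0.48 (0.00195) and Psma7 -0.45 (0.00124). Psmc3ip had -0.84 (0.000267). The chaperone Psmd10 was positive at 0.46 (0.000494). Of these 8 genes all but Psmb3 passed under every alternative run.

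KO and WT at 12 months differed in both directions. Of the 36 genes 13 were lower in KO and 8 higher, both smaller shares than the 38.9% and 31.3% of all genes. The median was -0.07 over the 36 genes and -0.07 over all. With quantile scaling 21 were lower and 5 higher (33.8% and 34.7% of all genes). The higher count was 5 without replicate 1 of 12-month KO and 4 without its replicate 2. Luminal markers summed to 372 to 391 CPM in 12-month KO and 3016 to 3138 in 12-month WT, leukocyte markers to 221 to 409 CPM in 12-month KO and 687 to 771 in 12-month WT, and endothelial markers to 243 to 259 CPM in 12-month KO and 103 to 114 in 12-month WT; their part was not tested.

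The catalytic subunits Psmb5 and Psmb6 were lower in KO at 12 months. Psmb6 had 69.7, 81.8 and 94.1 CPM in 12-month KO and 138, 132 and 146 in 12-month WT (log2 fold change -0.76 ± 0.13 (SE), adjusted p = 0.000139). Psmb5 had 31.1, 32.1 and 41.6 CPM in KO and 48.3, 47.1 and 52.8 in WT (log2 fold change -0.50 ± 0.11 (SE), adjusted p = 0.00118), and after correction for transcript GC content its difference was -0.12 and did not pass. Psmb7 did not pass, with 132, 122 and 126 CPM in KO and 135, 128 and 137 in WT (log2 fold change -0.07 ± 0.06 (SE), adjusted p = 0.283). Neither Psmb5 nor Psmb6 overlapped between the 12-month groups. Psma1, Psma7 and Psmb3 were also lower, and Psma6 and Psma8 higher, by 0.13 and 0.29 log2. Psma6 was -0.02 with quantile scaling, and it lost its call in 11 and Psma1 in 15 of 26 alternatives.

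The regulatory particle divided between members. Psmd3, a lid subunit, was lowest relative to WT, with 38.9, 43.8 and 46.1 CPM in 12-month KO and 77.5, 70.2 and 74.9 in 12-month WT (log2 fold change -0.79 ± 0.13 (SE), adjusted p = 9.59e-05). Psmd4 had 104, 111 and 121 CPM in KO and 158, 153 and 167 in WT (log2 fold change -0.51 ± 0.08 (SE), adjusted p = 5.37e-05), and Psmc3 had 164, 186 and 189 in KO and 258, 246 and 274 in WT (log2 fold change -0.53 ± 0.08 (SE), adjusted p = 7.33e-05). The groups did not overlap for any of these 3 genes. Psmc4, Psmc5 and the lid gene Psmd13 were -0.19, -0.18 and -0.19 log2. After GC correction Psmc4 and Psmd13 did not pass, and with length corrected as well they were 0.07 and 0.02. Higher in KO were 4 lid genes and the scaffold Psmd1. Psmd11 had 26.4, 31.2 and 29.95 CPM in 12-month KO and 22.8, 22.8 and 24.3 in 12-month WT (log2 fold change 0.32 ± 0.08 (SE), adjusted p = 0.00303), and Psmd14 had 152, 159.7 and 141 in KO and 137, 134 and 132 in WT (log2 fold change 0.16 ± 0.05 (SE), adjusted p = 0.0108). Psmd7 and Psmd12 were higher by 0.19 and 0.20. With quantile scaling Psmd1 was -0.12, the reverse of its reported 0.17.

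Of the remaining genes, Psmd10 had 50.6, 50.6 and 46.7 CPM in 12-month KO and 38.5, 36.9 and 36.95 in 12-month WT (log2 fold change 0.39 ± 0.06 (SE), adjusted p = 6.65e-05). Psmc3ip had 3.11, 3.38 and 3.23 CPM in KO and 6.24, 5.63 and 6.78 in WT (log2 fold change -0.84 ± 0.10 (SE), adjusted p = 8.13e-06). Psmd9 was lower by 0.33 log2 and its libraries overlapped. The age comparison in KO and this one share the 12-month KO libraries, so a gene that was low in those libraries counts in both.

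At 2 months no proteasome gene differed between KO and WT in limma, while 14.2% of all genes were lower and 1.86% higher in KO. That skew over all genes depended on the scaling, since with factors over all 12 libraries 7.38% were lower and 3.05% higher, with 0 proteasome genes called. At an unadjusted p under 0.05 there was 1 gene, Psmd2 (log2 fold change -0.15 ± 0.05 (SE), adjusted p = 0.0603), and edgeR and DESeq2 each called 0 of the 36, while they called 10.1% and 12.4% of all genes. The median was 0.00 over the 36 genes and -0.09 over all. Psmb6 had 138, 137 and 155 CPM in 2-month KO and 109.8, 159 and 153 in 2-month WT, with replicate 1 of WT the lowest. Psmd3 had 53.6, 65.7 and 61.4 CPM in KO and 57.1, 87.6 and 74.5 in WT, and it was called lower at -0.43 log2 when that WT replicate was left out. After correction for GC content 7 genes were called higher in KO by 0.14 to 0.29 (8.69% of all genes were), among them Psmb5, Psmb7, Psma7 and Psmc3.

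The changes with age in KO and with genotype at 12 months followed transcript GC content within the gene group. Over the 36 genes the Spearman correlation of change with GC was -0.67 for age in KO, 0.17 for age in WT, -0.74 for genotype at 12 months and -0.16 for genotype at 2 months; the genes share libraries, and over 13159 genes the values were -0.13, 0.15, -0.31 and -0.21. Of the 15 genes with at least 50% GC, 14 fell and 1 rose with age in KO and 11 were lower and 0 higher in KO at 12 months. Of the 21 genes under 50% GC, 12 fell and 2 rose with age in KO, and 2 were lower and 8 higher in KO at 12 months. Over all tested genes of any GC content, 34.2% fell and 32.9% rose with age in KO. At 12 months 38.9% were lower and 31.3% higher in KO. Shares of all genes within each GC class were not computed, so these counts cannot be set against them. Deviations between replicates followed GC in the 36 proteasome genes: for replicate 1 of 2-month WT the correlation was -0.82, for replicate 1 of 12-month KO -0.76 and for its replicate 3 0.66. With each library corrected for GC over all genes, 29 fell and 3 rose with age in KO (40.6% and 33.1% of all genes), 20 fell and 1 rose with age in WT (39.4% and 25.6%), and 12 were lower and 6 higher in KO at 12 months (35.1% and 37.4%). The age change in KO minus that in WT was then negative for 19 genes and positive for 1, Psmd10 (32.6% and 31.1% of all genes). With transcript length corrected as well, 9 were negative and 6 positive (31.9% and 31%), and in KO at 12 months 7 were lower and 10 higher (34.4% and 37.8%). With GC alone corrected Psmb6 was still lower with age in KO (-0.78) and in KO at 12 months (-0.43), and so was Psmd3 (-0.34 and -0.31).

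**Figure D4:**
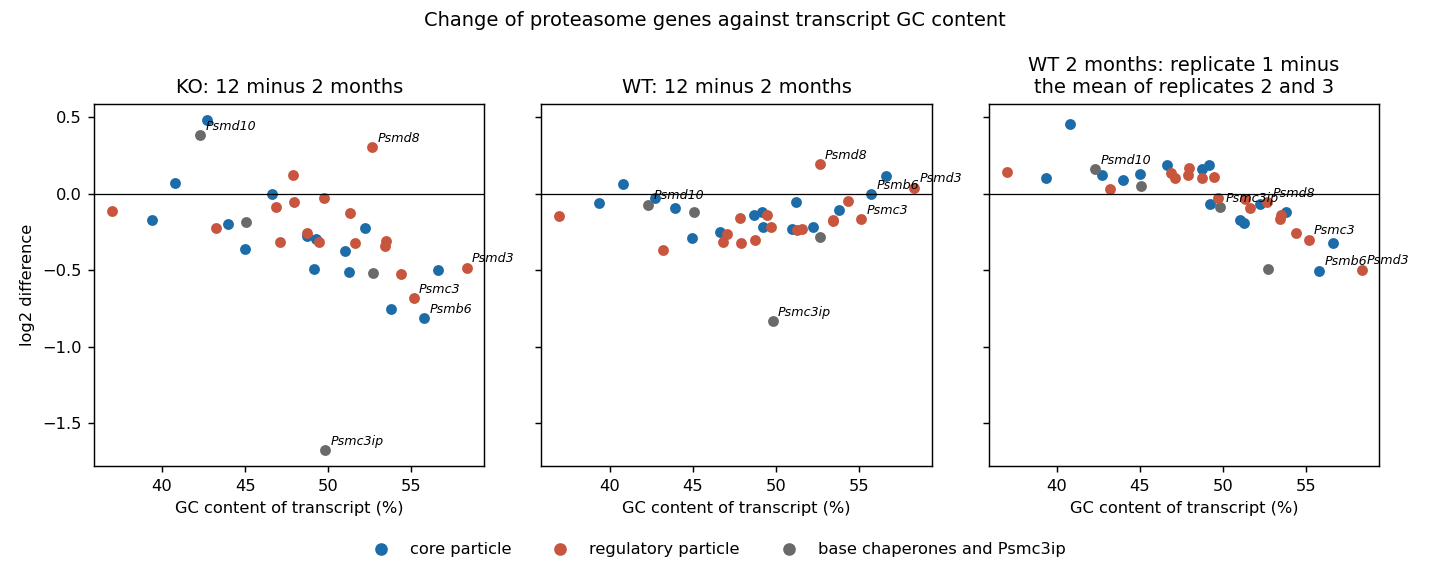
Log2 difference of the 36 tested proteasome genes against the GC content of the longest transcript (%), for age in KO, age in WT, and for 1 replicate of 2-month WT against the mean of the other 2; each point is a gene, coloured by particle. Genes with high GC lie lowest in KO (Spearman -0.67) and also lowest in the single WT replicate (-0.82), while age in WT shows little slope (0.17).

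Immunoproteasome subunits replace the catalytic subunits in immune cells and after interferon. Of the 3, Psmb8 and Psmb9 rose with age in KO (32.9% of all genes did), where their constitutive counterparts fell, and Psmb10 did not pass. Psmb8, which takes the place of Psmb5, had 43.4, 48.9 and 54.1 CPM in 12-month KO, 22.6, 24.4 and 26.7 in 2-month KO, 34.1, 33.1 and 35.9 in 12-month WT and 30.7, 38.9 and 40.1 in 2-month WT. It was higher at 12 than at 2 months in KO (log2 fold change 0.97 ± 0.10 (SE), adjusted p = 2.64e-06), higher in KO than in WT at 12 months (0.49, adjusted p = 0.000885) and lower in KO at 2 months (-0.56, adjusted p = 0.00284). Psmb9, the counterpart of Psmb6, was 7.56 ± 1.51 CPM in 12-month KO, 3.85 ± 0.132 in 2-month KO, 5.62 ± 0.489 in 12-month WT and 5.77 ± 0.801 in 2-month WT (SD, n = 3 each). It changed the same way in these 3 comparisons (adjusted p = 5.82e-05, 0.0181 and 0.0165), and its locus overlaps Tap1. Psmb10, the counterpart of Psmb7, was called in no comparison, and neither Psmb8 nor Psmb9 changed with age in WT.

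The level of Psmb8 relative to Psmb5 therefore differed between groups. The ratio of their CPM was 1.301 to 1.52 in 12-month KO, 0.486 to 0.521 in 2-month KO, 0.681 to 0.707 in 12-month WT and 0.784 to 0.821 in 2-month WT, and no 2 groups overlapped. The ratio was not corrected for GC content, which is 56.6% for Psmb5, and Psmb5 has a near-identical copy. For Psmb9 over Psmb6 the ratio was 0.0843 to 0.0988 in 12-month KO and 0.0242 to 0.0463 in the other 9 libraries. The ratio of Psmb10 to Psmb7 was 0.178 to 0.273 in 12-month KO and 0.160 to 0.316 elsewhere, with overlap. The 5 leukocyte markers summed to 221 to 409 CPM in 12-month KO and to 687 to 1191 CPM in the other groups, a sum carried mostly by Lyz2. Ptprc, of all leukocytes, had 14.8 to 23.3 CPM in 12-month KO and 18.98 to 22.1 in 12-month WT, with overlap, and Cd3e, of T cells, had 1 to 9 reads per library in 12-month KO and 0 in the other 9 libraries. Endothelial markers summed to 243 to 259 CPM in 12-month KO, 62.6 to 68.8 in 2-month KO, 103 to 114 in 12-month WT and 98.6 to 105 in 2-month WT. The part of either cell type in the levels of Psmb8 and Psmb9 was not tested.

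**Figure D5:**
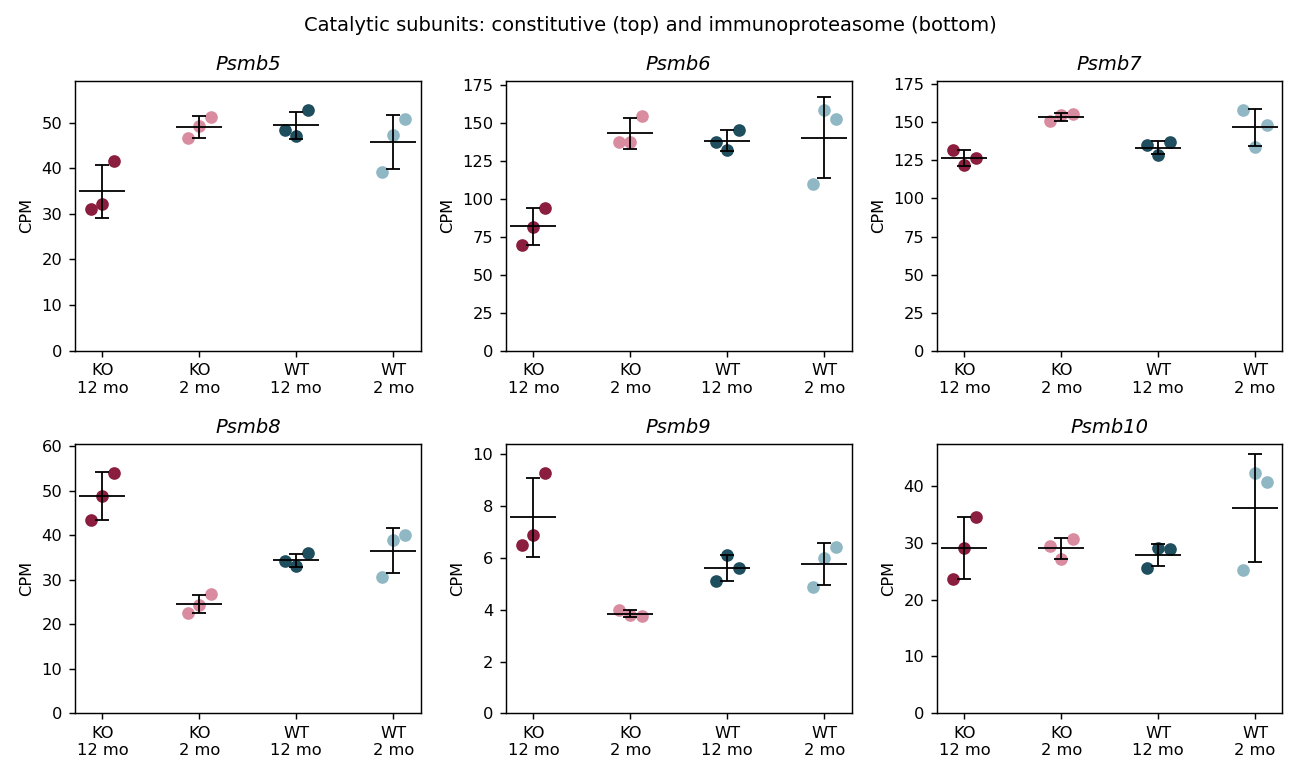
CPM per library of the constitutive catalytic subunits Psmb5, Psmb6 and Psmb7 (top) and of their immunoproteasome counterparts Psmb8, Psmb9 and Psmb10 (bottom); points are libraries, bars mean ± SD (n = 3). In 12-month KO Psmb6 lies below and Psmb8 and Psmb9 above all other libraries, while Psmb5 overlaps replicate 1 of 2-month WT (39.1 CPM), the leftmost point of that group.

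Of the 5 core assembly chaperones 4 fell with age in KO, 3 fell with age in WT and 3 were lower in KO at 12 months, beside 34.2%, 35.6% and 38.9% of all genes. Psmg3, which with Psmg4 guides alpha ring formation, had 8.23 ± 1.97 CPM in 12-month KO and 14.5 ± 1.36 in 2-month KO (log2 fold change -0.80 ± 0.18 (SE), adjusted p = 0.00137). Psmg2, of the other such pair, had 21.4 ± 1.28 CPM in 12-month KO and 30.3 ± 0.760 in 2-month KO (log2 fold change -0.49 ± 0.07 (SE), adjusted p = 5.4e-05). Pomp, needed to finish the core, did not pass in KO (log2 fold change 0.01 ± 0.06 (SE), adjusted p = 0.941) and fell in WT (log2 fold change -0.15 ± 0.06 (SE), adjusted p = 0.0462). Of the 6 regulatory particle genes with other names, 4 fell and 1 rose with age in KO (34.2% and 32.9% of all genes). Uchl5, a deubiquitinase of the base, fell (log2 fold change -0.37 ± 0.07 (SE), adjusted p = 0.00036), and AI314180, listed in RefSeq as a synonym of Ecpas, a proteasome adaptor, rose (217 CPM in 12-month KO, against 154 in 2-month KO; log2 fold change 0.49 ± 0.07 (SE), adjusted p = 4.23e-05). Among 5 activators and inhibitors of the core 2 rose with age in KO, beside 32.9% of all genes, namely the activator subunits Psme1 (0.45) and Psme3 (0.15).

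Of 7 genes of the NRF1 route 5 rose and 1 fell with age in KO (32.9% and 34.2% of all genes), and 3 rose and 2 fell with age in WT (22.3% and 35.6%). Nfe2l1 had 450.2, 478 and 517 CPM in 12-month KO and 374, 369 and 389.9 in 2-month KO (log2 fold change 0.35 ± 0.07 (SE), adjusted p = 0.000639). In WT it had 605, 582 and 607 CPM at 12 months and 377, 459 and 427 at 2 months (log2 fold change 0.51 ± 0.07 (SE), adjusted p = 3.05e-05). At 12 months it was lower in KO than in WT (log2 fold change -0.31 ± 0.07 (SE), adjusted p = 0.00134), the groups not overlapping. Its relative Nfe2l2 (NRF2) rose with age in KO (log2 fold change 0.21 ± 0.06 (SE), adjusted p = 0.00611) and fell with age in WT (log2 fold change -0.29 ± 0.06 (SE), adjusted p = 0.000792). Maff, a small partner protein of both factors, rose in KO (73.4 CPM in 12-month KO, against 31.6 in 2-month KO; log2 fold change 1.20 ± 0.08 (SE), adjusted p = 1.35e-08) and in WT (log2 fold change 0.54 ± 0.08 (SE), adjusted p = 3.6e-05), and Mafg fell in KO (log2 fold change -0.46 ± 0.11 (SE), adjusted p = 0.0017). NRF1 is controlled mainly as a protein, which these data do not measure.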

How the data were processed

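Per the labels' protocols, PicoPure-isolated RNA went into TruSeq Stranded total RNA libraries. Per the submitters' processing notes, TopHat2 2.1.0, Bowtie2 2.2.4, SAMtools 0.1.18 and HTSeq 0.6.1p1 were used with mm10. Gene annotation and strand setting are not stated in the labels. The signal values deposited by the authors are CPM normalized by edgeR's TMM method, per the file headers. Every value above 0 was within 0.1 of a whole number of reads, so reads were recovered for edgeR 4.0.16, which called 9333 of all genes for age in KO, and DESeq2 1.42.0 as alternatives. Deposited columns came from different TMM runs; factors over all 12 libraries were an alternative.

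log2(CPM + 0.5) of the 13961 genes whose mean reached 0.5 CPM was fitted in limma 3.58.1 (R 4.3.3) with 4 group means, 8 residual degrees of freedom and 5 comparisons, and p-values were Benjamini-Hochberg adjusted over all genes in each. The added 0.5 shrinks fold changes of low genes. Floors cover counting error only.

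Transcript length and GC content are those of the longest protein-coding transcript in GENCODE vM21 (94.3% of tested genes). Copies were searched with blastn 2.17.0. GC correction used a spline with 5 degrees of freedom per library; it, the length correction, leaving out both replicates 1 and leaving out genes with copies were chosen after seeing the data. Deposited starts count from 0 (1 base before the RefSeq start site for 6332 of 8196 plus-strand genes) and are printed from 1. Members, lists and tests were chosen with earlier results of these data known. Genes named are the 3 catalytic subunits, Psmd4, Psmd14, Psmc4, the extremes of each class in each comparison, those called against their class, those called in the interaction and the 1 that failed the filter; of related lists up to 4 genes and Psmb8 to Psmb10 and Nfe2l1. Psmd2 and Psmd3 at 2 months and the genes printed as sequences were chosen after their values were seen.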

Additional observations from a re-analysis of the deposited data

Results flagged for a closer look

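For 15 proteasome genes the age change differed between KO and WT by the interaction term of limma at an adjusted p under 0.05, a share below the 57.7% of all genes for which it did. The age change in KO minus that in WT, on the log2 scale, was -0.45 for Psma7, -0.65 for Psmb3, -0.61 for Psmb5 and -0.81 for Psmb6 in the core. In the regulatory particle it was -0.52 for Psmc3, -0.52 for Psmd3 and -0.48 for Psmd4, and outside both particles -0.84 for Psmc3ip. It was positive in the core for Psma6 (0.25) and Psma8 (0.51), in the regulatory particle for Psmd1 (0.23), Psmd7 (0.19), Psmd11 (0.28) and Psmd12 (0.26), and for the chaperone Psmd10 (0.46). Of the 8 negative genes 7 have at least 50% GC, and of the 7 positive ones none has; the part of GC content in the difference was not tested beyond the correction given in the report. With factors over all 12 libraries all 8 negative genes passed, and of the positive ones Psma8 and Psmd10.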

How the results depend on the processing

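Calls that held under all alternatives in which the gene could be tested numbered 24 of 29 for age in KO, 7 of 19 for age in WT, 10 of 21 for genotype at 12 months and 7 of 15 for the interaction. For age in WT, genes lower were 18 as reported, 7 with quantile scaling and 11 with edgeR, and genes higher were 1 and, after correction for GC and length, 3. For genotype at 12 months, higher genes were 8 as reported, 5 with quantile scaling and 10 after correction for GC and length, and lower genes 13, 21 and 7. For genotype at 2 months, 0 became 7 higher genes after correction for GC alone or with length, and 1 lower gene, Psmd3, without replicate 1 of 2-month WT, alone or with replicate 1 of 12-month KO. For the interaction, positive genes were 7 as reported, 2 with factors over all 12 libraries, DESeq2 size factors, edgeR or DESeq2, 3 with quantile scaling and 1 after GC correction; negative genes were 8, 22 with quantile scaling, 15 with edgeR and 19 after GC correction. Shares of all genes in each direction with edgeR, DESeq2 or DESeq2 size factors are not given here. The cause was not tested.

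Leaving out 1 library at a time gave 12 to 20 lower and 1 higher for age in WT. For age in KO it gave 24 to 26 lower and 3 higher. For genotype it gave 10 to 14 lower and 4 to 8 higher at 12 months, and 0 to 1 lower and 0 higher at 2 months. For the interaction 6 to 9 were negative and 4 to 7 positive. Shares of all genes with 1 library left out are not given here, so these counts cannot be set against them. Core minus regulatory particle then ranged from -0.12 to -0.02 for age in KO, 0.03 to 0.10 for age in WT, -0.14 to -0.03 and 0.01 to 0.08 for genotype at 12 and 2 months and -0.19 to -0.08 for the interaction. This difference was 0.0379 for age in KO and -0.0466 for the interaction against ATPases alone; 0.0246 for age in KO and 0.15 for age in WT after correction for GC and length; and 0.007 for age in KO, -0.0172 for genotype at 12 months and -0.0415 for the interaction without genes that have copies.

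With quantile scaling the sign was reversed for genotype at 12 months in Psma6 (-0.0249), Psmd1 (-0.12) and Nfe2l2 (-0.0156), for the interaction in Psmd1 (-0.15) and Nploc4 (-0.001), and for age in WT in Psmc6 (0.0342). Psmc6 was also 0.0442 after GC correction and 0.0608 after GC and length correction, which gave 0.0697 for Psmc4 and 0.0227 for Psmd13 for genotype at 12 months. The labels do not state that replicate numbers pair libraries. In deviations from the group means 8 of 18 pairs of the same number correlated above 0.1 (range -0.16 to 0.59). Pairs of different numbers ranged from -0.56 to 0.42. These values cannot settle whether libraries were paired. With the replicate block 1 gene was higher and 21 lower for age in WT, 3 and 26 for age in KO, 8 and 14 for genotype at 12 months, 0 and 0 at 2 months and 7 and 9 for the interaction. Shares of all genes with the replicate block are not given here. The precision of Psma8 and Psmb11 is limited by their reads.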

Other observations

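The factors that carry tagged proteins to the proteasome moved in both directions. Of 11 shuttle and extraction genes 3 rose and 2 fell with age in KO (32.9% and 34.2% of all genes), in ageing WT 4 rose and 3 fell (22.3% and 35.6%), and 4 were higher and 3 lower in KO at 12 months (31.3% and 38.9%). The shuttle proteins Ubqln1 and Ubqln4 fell with age in KO (-0.20 and -0.21 log2, adjusted p = 0.0309 and 0.00861) and rose in WT (0.27 and 0.23, adjusted p = 0.00649 and 0.0068). Their relative Ubqln2 had 25.2, 25.2 and 21.1 CPM in 12-month KO and 15.1, 15.9 and 13.8 in 2-month KO, and rose (log2 fold change 0.65 ± 0.10 (SE), adjusted p = 6.46e-05). Zfand2a, a stress-induced proteasome partner, rose with age in KO (0.46, adjusted p = 4e-06) and in WT (0.38, adjusted p = 2.64e-05).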
